A study of Mus musculus with 2 samples.

Results

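The transcripts of 7 genes that heart muscle cells raise around an injury, Sprr1a, Ankrd1, Xirp2, Flnc, Clu, Krt8 and Krt18, were followed in 2 sections of injured neonatal mouse heart. The genes were taken by symbol, and all 7 were found among the 32285 genes of the deposited tables. They were chosen by measured values of these data, namely their levels in both sections and their co-location with matrix and cardiomyocyte transcripts, so both are given as descriptions without a test. Expression was measured with Visium, in which RNA of a tissue section is captured on an array of barcoded spots that each cover several cells. The first section came from a PD1 Het (PD1 +/-) heart and the second from a PD1 KO (PD1 -/-) heart, both of C57BL/6 mice. Both mice had the left anterior descending coronary artery tied on postnatal day 2, which infarcts the wall of the left ventricle, and both hearts were taken 7 days later. The 10 um sections lay 200 um below the suture and were permeabilized for 18 min. PD1, encoded by Pdcd1, is an inhibitory receptor of T cells. Sections of wild-type or uninjured hearts were not analysed here.

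The border zone is the living muscle next to an infarct. Cardiomyocytes there are stretched and stressed, return to a fetal-like program with natriuretic peptides and fetal contractile proteins, and rebuild their Z-discs, cell contacts and cytoskeleton. Ankrd1, Xirp2 and Flnc encode proteins of the sarcomere and cell junction, Sprr1a and Clu encode stress proteins, and Krt8 and Krt18 encode the keratin pair of simple epithelia, which stressed muscle cells can also make. In healthy heart the keratins mark the epicardium, the mesothelial layer that covers the organ.

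The PD1 Het section kept 811 spots and 12814494 unique molecular identifiers (UMIs, which count captured RNA molecules), and the PD1 KO section 851 spots and 23520499. Median depth was 15475 and 27134 UMIs per spot, and mitochondrial genes took 25.6% and 15.9% of the UMIs. A set of 14 ventricular cardiomyocyte marker genes took 8.58% and 8.66% of the UMIs, and 16 scar matrix genes took 0.644% and 0.911%. The sections share 225 spot barcodes, which name positions on the array. Pdcd1 had 0 UMIs in both sections, which allows up to 0.234 and 0.128 CPM (UMIs scaled to a total of 1e6 per section), so it gives no check of the genotype labels. Xist had 541 UMIs in PD1 Het and 1 in PD1 KO tissue, and 4 Y-linked genes had 1 and 2900, so the animals' sex, like any other difference between 2 single hearts, cannot be told apart from genotype. With 1 section per genotype no difference has a replicate check. All intervals are 95% intervals that cover counting error only. Because a spot holds several cells, fewer cells of a type and less RNA per cell cannot be told apart.

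Members together took 842 CPM (10784 UMIs) in the PD1 Het section and 1501 CPM (35295 UMIs) in the PD1 KO section. All 7 had a higher CPM in the PD1 KO section, but so did the median gene, by 1.26-fold over the 11455 genes with at least 100 UMIs. Set against that median gene, Sprr1a, Clu and Krt8 were at least 1.5-fold higher in the PD1 KO section and no member was that much lower. Of all genes tested, 5.5% were that much higher and 3.3% that much lower, and since this contrast helped to choose the members nothing is read from their count. The median of the members was 0.55 on the relative log2 scale, where the median gene is at 0, and Flnc was the only member below 0.

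Ankrd1, on chromosome 19 (chr19:36111961-36120099, minus strand, GRCm38 with GENCODE vM21, as for all gene positions here), encodes an ankyrin repeat protein that binds titin in the sarcomere and also acts in the nucleus. It had 6140 UMIs (479 CPM) in PD1 Het and 18711 UMIs (796 CPM) in PD1 KO tissue, a ratio of 1.66 (1.61 to 1.71). Relative to the median gene its log2 ratio was 0.40 (0.36 to 0.44). It was widespread in both sections, with a UMI in 96.5% of the PD1 Het spots and 99.6% of those in PD1 KO and a median of 6 and 17 UMIs per spot. The 250 bases before its RefSeq start (GRCm38.p6, chr19:36119845-36120094, minus strand) are shown because Ankrd1 is a widely used readout of the YAP and TEAD pathway. Capitals mark the motif CATTCC bound by TEAD factors, which lies on the other strand here and so reads GGAATG.

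Ankrd1: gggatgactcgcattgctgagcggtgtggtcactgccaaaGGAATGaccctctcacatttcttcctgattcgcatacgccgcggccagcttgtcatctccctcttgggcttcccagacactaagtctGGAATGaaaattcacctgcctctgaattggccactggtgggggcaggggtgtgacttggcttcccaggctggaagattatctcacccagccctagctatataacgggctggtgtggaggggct

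The window held this motif 210 and 123 bases before the start. On either strand it occurred in 12.6% of 32851 RefSeq windows of the same length.

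Xirp2 (chr2:67446002-67526614, plus strand) encodes a Xin repeat protein that binds actin at the intercalated disc, the contact between muscle cells. It had 581 UMIs (45.3 CPM) in PD1 Het and 1828 UMIs (77.7 CPM) in PD1 KO tissue, a ratio of 1.71 (1.56 to 1.89) and a relative log2 ratio of 0.45 (0.31 to 0.58). The gene overlaps the antisense gene Gm13601. Its window (chr2:67445752-67446001, plus strand) is shown because it held matches of 2 kinds, both in capitals. The first, 107 bases before the start, is the AP-1 motif TGANTCA of Fos and Jun factors, and the second, 74 bases before it, is a site for MEF2, a muscle transcription factor.

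Xirp2: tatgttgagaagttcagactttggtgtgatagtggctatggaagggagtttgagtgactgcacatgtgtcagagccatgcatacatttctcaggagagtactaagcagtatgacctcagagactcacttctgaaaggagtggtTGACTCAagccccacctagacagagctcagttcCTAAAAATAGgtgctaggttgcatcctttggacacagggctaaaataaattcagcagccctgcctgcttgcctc

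These motifs occurred in 6.75% and 2.92% of all windows on either strand. A match is a run of letters and not a shown binding site.

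Flnc (chr6:29433256-29461883, plus strand) encodes the muscle filamin, which crosslinks actin at the Z-disc and costamere. It had 1979 UMIs (154 CPM) in PD1 Het and 4145 UMIs (176 CPM) in PD1 KO tissue, a ratio of 1.14 (1.08 to 1.20). Relative to the median gene its log2 ratio was -0.14 (-0.22 to -0.06), whereas it was 0.19 on the CPM scale and 0.01 with a total without mitochondrial genes, so its direction depends on the scaling. Flnc was the most evenly spread member, with 22.4% of its UMIs in its own top 10% of PD1 Het spots and 19.6% in those of the PD1 KO section.

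Sprr1a (chr3:92483952-92485895, minus strand) encodes a small proline-rich protein of the skin's cornified envelope that is also made by stressed cardiomyocytes and injured neurons. It had 4 UMIs in the PD1 Het section, in 4 different spots, or 0.312 CPM (0.0850 to 0.799). In the PD1 KO section it had 148 UMIs in 73 spots, or 6.29 CPM (5.32 to 7.39). The CPM ratio was 20.2, with a wide interval (7.71 to 75.0) set by the 4 PD1 Het UMIs. A single PD1 KO spot held 21 of the UMIs and the next one 10. Its window (chr3:92485882-92486131, minus strand) is shown because Sprr1a had the largest ratio of the members, and capitals mark TGANTCA, found 146 and 116 bases before the start.

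Sprr1a: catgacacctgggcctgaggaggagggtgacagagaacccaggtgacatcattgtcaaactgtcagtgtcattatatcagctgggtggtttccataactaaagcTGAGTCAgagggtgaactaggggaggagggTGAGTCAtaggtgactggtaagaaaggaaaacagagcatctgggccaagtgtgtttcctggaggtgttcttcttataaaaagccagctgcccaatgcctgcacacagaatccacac

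Clu (chr14:65968483-65981547, plus strand) encodes clusterin, a secreted chaperone that binds misfolded proteins and protects damaged cells. It had 1902 UMIs (148 CPM) in PD1 Het and 9740 UMIs (414 CPM) in PD1 KO tissue, a ratio of 2.79 (2.66 to 2.93) and a relative log2 ratio of 1.15 (1.08 to 1.22). The difference sat mostly in few spots. On a scale of UMIs per 10000 UMIs of the spot, the median spot held 1.02 and 1.54, while the highest spots held 60.1 and 144. The top 10% of spots by Clu held 33.0% of its UMIs in PD1 Het and 61.7% in PD1 KO tissue, where 2 spots had 345 and 302 UMIs.

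Krt8 (chr15:101996698-102004482, minus strand) and Krt18 (chr15:102028180-102032027, plus strand) are neighbours on chromosome 15, 23697 bases apart with 0 annotated genes between them. Their type II and type I keratins join into 1 filament. Krt8 had 62 UMIs (4.84 CPM) in PD1 Het and 330 UMIs (14.03 CPM) in PD1 KO tissue, a ratio of 2.90 (2.21 to 3.87). Krt18 had 116 UMIs (9.05 CPM) and 393 UMIs (16.7 CPM), a ratio of 1.85 (1.497 to 2.29). Both were low, with no more than 5 UMIs in any PD1 Het spot and up to 11 and 19 in a PD1 KO spot. Krt8 overlaps the noncoding gene Gm36026 on the other strand, and 13.2% of the 31-base words at the 3′ end of Krt18 also occur in transcripts of other genes, so their counts are less certain. The windows before the Krt8 and Krt18 starts held neither TGANTCA nor CATTCC, and that of the second of 2 Flnc starts held CATTCC once.

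**Figure D1:**
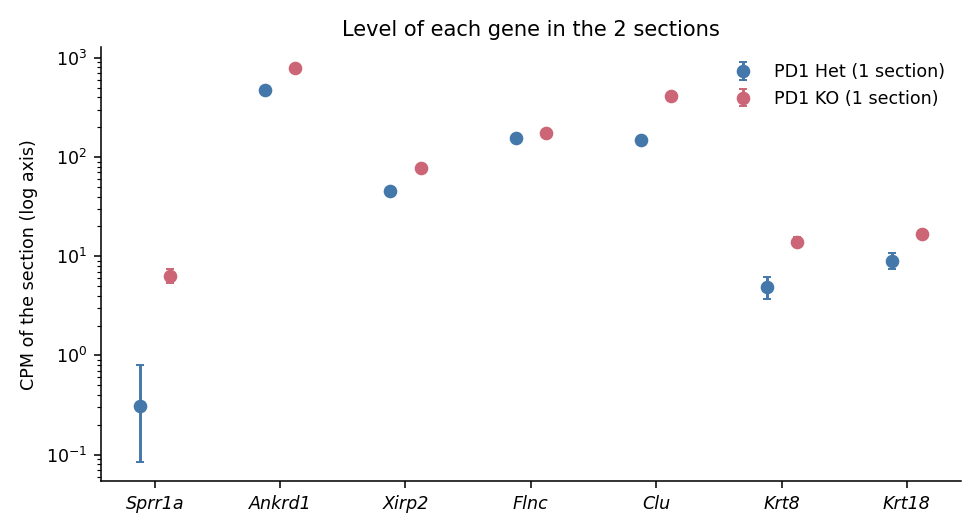
CPM level of each gene by section on a log axis, for PD1 Het and PD1 KO, 1 section each, with 95% Poisson intervals for counting error. Sprr1a has the widest gap, 0.312 against 6.29 CPM, and Flnc the narrowest, 154 against 176 CPM.

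Detection per spot was compared at equal depth, since PD1 KO spots were deeper. Each spot was thinned to 10000 UMIs, which left 759 PD1 Het and 839 PD1 KO spots and dropped 52 and 12. Sprr1a was then found in 0.395% (0.0816 to 1.15) of the PD1 Het spots and 4.05% (2.82 to 5.62) of those in PD1 KO, against 0.493% and 8.58% without thinning. Krt8 was found in 4.74% (3.34 to 6.51) and 10.7% (8.71 to 13.0), against 7.15% and 21.5% without thinning. Xirp2 was found in 32.9% (29.6 to 36.4) and 50.3% (46.9 to 53.7), against 45.4% and 79.1%. These members, Ankrd1 and Clu had higher shares in the PD1 KO section with intervals that did not overlap. How many of all genes did so was not computed, and the median gene was itself 1.26-fold higher in CPM there. Levels helped to choose the members, so nothing is read from their count. Flnc, in 76.9% (73.8 to 79.9) and 80.8% (78.0 to 83.4) of spots, and Krt18, in 7.91% (6.09 to 10.1) and 11.3% (9.26 to 13.7), had intervals that overlapped. At least 4 of the 7 members were found together in 22.4% of the PD1 Het spots and 40.3% of those in PD1 KO. All 7 were found in 6 PD1 KO spots (0.715%) and in 0 of the 759 PD1 Het spots, which allows a share of up to 0.395%.

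To place the members in the tissue, each section's spots were put in order of scar matrix share, the percentage of a spot's UMIs that came from the 16 matrix genes, such as collagens, Postn and Fn1, and cut into 5 equal bins. The matrix share ran from 0.299% in bin 1 to 1.46% in bin 5 of the PD1 Het section, and from 0.417% to 2.32% in the PD1 KO section. Ankrd1, Xirp2, Clu, Krt8 and Krt18 were higher in the matrix-rich spots of both sections, Sprr1a was so in the PD1 KO section, and Flnc was near level. At least 1.5-fold more CPM in bin 5 than in bin 1 was found for 5 of 6 members with 10 or more UMIs in the PD1 Het section, where 35.3% of all genes did so, and for 6 of 7 in the PD1 KO section, where 26.5% did. No member was that much lower in either section, where 2.71% and 3.1% of all genes were. Co-location with matrix was part of the choice of the members, so nothing is read from these counts.

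Clu was 78.4, 109, 116, 162 and 304 CPM in bins 1 to 5 of the PD1 Het section, and 107, 113, 162, 352 and 1625 CPM in those of the PD1 KO section. Its bin 5 to bin 1 ratio was 3.87 (3.32 to 4.54) in PD1 Het and 15.2 (13.9 to 16.6) in PD1 KO tissue. The PD1 KO profile was nearly flat over 2 bins and steep in the last, which held 63.7% of all Clu UMIs of that section.

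Ankrd1 was 394, 416, 477, 513 and 624 CPM in the PD1 Het bins, and 504, 572, 709, 952 and 1408 CPM in the PD1 KO bins, with ratios of 1.58 (1.46 to 1.72) and 2.79 (2.67 to 2.93). Xirp2 was 36.3, 42.6, 38.3, 47.7 and 65.2 CPM in the PD1 Het bins, and 52.9, 56.9, 66.4, 76.8 and 155 CPM in the PD1 KO bins, with ratios of 1.80 (1.38 to 2.34) and 2.92 (2.53 to 3.38). Both were present in every bin, with smaller ratios than Clu in each section.

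Krt18 was 2.93, 4.77, 5.36, 9.62 and 25.3 CPM in the PD1 Het bins, and 4.95, 4.62, 6.99, 17.1 and 60.5 CPM in the PD1 KO bins. Krt8 was 1.83, 2.94, 4.21, 5.61 and 10.6 CPM in the PD1 Het bins, and 3.24, 5.63, 5.76, 15.2 and 49.0 CPM in the PD1 KO bins. The keratins thus had a clear gradient in the PD1 Het section as well, with bin 5 to bin 1 ratios of 8.62 (4.09 to 20.9) for Krt18 and 5.81 (2.17 to 19.5) for Krt8. In the PD1 KO section these ratios were 12.2 (8.13 to 19.1) and 15.1 (9.20 to 26.5), with intervals that overlap those of the PD1 Het section.

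Sprr1a had 0 UMIs in bin 1 and 117 UMIs (30.6 CPM) in bin 5 of the PD1 KO section, at least 53.7-fold higher when bin 1 is set at its floor of 3 counts, with an exact lower 95% limit of 42.9. Bin 5 held 79.1% of its UMIs. In the PD1 Het section 3 of its 4 UMIs lay in bin 5. Flnc was 146, 149, 158, 166 and 155 CPM in the PD1 Het bins, and 171, 178, 178, 177 and 179 CPM in the PD1 KO bins, with ratios of 1.06 (0.916 to 1.23) and 1.05 (0.948 to 1.16), both intervals including 1.

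**Figure D2:**
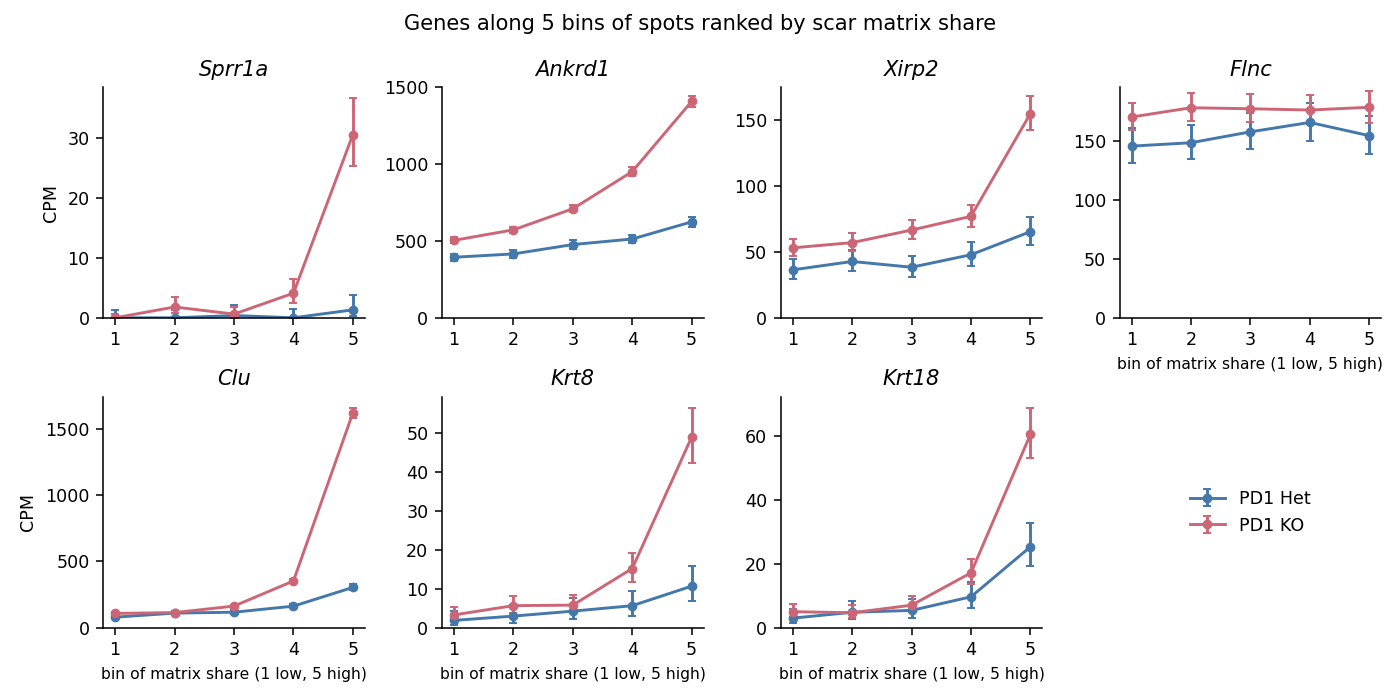
CPM of each gene in 5 bins of spots ranked by matrix share within each section, on linear axes, with 95% Poisson intervals for counting error. Clu reaches 1625 CPM in the last PD1 KO bin against 304 CPM in the last PD1 Het bin, while Flnc is flat.

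The same bins differed in more than matrix. From bin 1 to bin 5 the share of the cardiomyocyte markers went from 8.88% to 7.36% of UMIs in PD1 Het and from 9.27% to 6.86% in PD1 KO tissue. Mitochondrial UMIs went from 30.05% to 19.1% and from 18.7% to 11.7%. With a CPM total without mitochondrial genes, the bin 5 to bin 1 ratio of Ankrd1 was 1.37 (1.26 to 1.49) in PD1 Het, under the 1.5-fold line, and 2.57 (2.45 to 2.69) in PD1 KO. Xirp2 and Clu, at 1.55 and 3.35 in PD1 Het, and the keratins stayed above the line, so that 4 of 6 members passed in PD1 Het and 6 of 7 in PD1 KO. Set against cardiomyocyte content, Ankrd1 went from 4.44 to 8.48 UMIs per 1000 cardiomyocyte marker UMIs in the PD1 Het section and from 5.44 to 20.5 in the PD1 KO section. Clu went from 0.883 to 4.13 and from 1.15 to 23.7. Flnc went from 1.64 to 2.10 and from 1.84 to 2.61, the smallest ratio among the members with 10 or more UMIs in each section. On this scale the same 5 of 6 and 6 of 7 members were at least 1.5-fold higher in bin 5, with 55.5% and 64.4% of all genes.

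When the spots were ranked by cardiomyocyte marker share instead, most members of the PD1 KO section were lower where the markers were high. In the PD1 KO section 6 of 7 members were at least 1.5-fold lower in the most cardiomyocyte-rich bin than in the poorest, where 13.6% of all genes were. From the poorest to the richest bin, Clu was 1467 and 159 CPM, Krt18 54.7 and 5.68 CPM, Krt8 42.3 and 4.63 CPM and Sprr1a 28.4 and 1.89 CPM. Ankrd1, at 1207 and 675 CPM, and Xirp2, at 140 and 63.7 CPM, had smaller differences, and Flnc was 170 and 198 CPM. In the PD1 Het section 1 of 6 members, Krt18, was that much lower, with a ratio of 0.659 and an interval that included 1 (0.354 to 1.19), where 12.7% of all genes were. This count of 1 depended on the bin rule and became 4 with 10 bins, 3 with a total without mitochondrial genes and 0 with spots of at least 5000 UMIs. No member was at least 1.5-fold higher in the richest bin of either section, where 10.4% of genes in PD1 Het and 5.88% in PD1 KO were. Flnc in the PD1 Het section lay just under that line, at 127 and 189 CPM, a ratio of 1.495 (1.29 to 1.73). Ankrd1 had the opposite direction in the PD1 Het section, with a ratio of 1.32 against 0.559 in the PD1 KO section. The difference between the sections was not tested. The PD1 KO bin poorest in cardiomyocyte markers also held more matrix, 2.02% of UMIs against 0.563% in the richest. Co-location with cardiomyocyte transcripts was part of the choice of the members, so nothing is read from the counts of members along these bins.

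Spots were also split at the section medians of both shares, to see whether the members peaked where both kinds of transcript were above their median. Flnc did in both sections, with 173 CPM in such PD1 Het spots and 192 CPM in such PD1 KO spots, and was lowest in spots below both medians, at 135 and 151 CPM. These peaks were within counting error of the 161 and 187 CPM in spots high in cardiomyocyte markers alone, and in PD1 KO the peak was lost when the matrix list lacked Postn, Fn1 and Timp1. Ankrd1 did in the PD1 Het section, with 646 CPM against 502 in spots high in matrix alone and 453 in spots high in cardiomyocyte markers alone. In the PD1 KO section Ankrd1 was 967 CPM in spots high in both and 1106 CPM in spots high in matrix alone. The other members, leaving aside Sprr1a with its 4 PD1 Het UMIs, were highest in spots high in matrix and low in cardiomyocyte markers. For Clu the PD1 KO values were 981 CPM in these, 280 CPM in spots high in both, 126 CPM in spots high in cardiomyocyte markers alone and 89.8 CPM in spots low in both. The label of border-zone genes rests on co-location with matrix here, since spot positions were not used and a spot's UMIs do not show which of its cells made them.

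Because the PD1 KO section held more matrix, the sections were also compared in bins with the same limits of matrix share. In bins 1 to 3, with 0.662% matrix at most, Clu had PD1 KO to PD1 Het ratios of 1.07, 0.974 and 0.924, below or near the median gene of these bins (1.18 to 1.19). In bin 5, above 1.02% matrix, the Clu ratio was 3.61 (3.31 to 3.94), while the median gene was at 1.13. In bin 4, between these limits, it was 1.36 (1.20 to 1.53). Krt8 had ratios of 0.996, 1.28, 0.883 and 1.66 in bins 1 to 4 and 3.56 (2.20 to 6.12) in bin 5. Ankrd1 had 1.21, 1.23, 1.18 and 1.55 in bins 1 to 4 and 2.01 (1.88 to 2.15) in bin 5. The ratios of Xirp2 had no order over bins 1 to 4, at 1.21, 1.47, 1.48 and 1.20, and reached 2.06 (1.67 to 2.56) in bin 5. Krt18 was 1.42 in bin 1 and lower in PD1 KO in bins 2 to 4, at 0.779, 0.791 and 0.742 with intervals that included 1, and 2.07 (1.45 to 3.02) in bin 5. Flnc was between 1.08 and 1.18 in all 5 bins. Sprr1a had 3 UMIs in PD1 Het spots of bin 5 and 122 in PD1 KO spots, a ratio of 11.9 (3.98 to 58.5). Bin 5 held 114 PD1 Het and 219 PD1 KO spots with like cardiomyocyte marker shares, 7.08% and 7.23%, and matrix shares of 1.73% and 2.02%. Ankrd1, Xirp2, Clu, Krt8 and Krt18 each had their largest ratio in this most matrix-rich bin, and Flnc did not. How many of all genes had their largest ratio there was not computed. Levels and co-location with matrix helped to choose the members, so nothing is read from this pattern.

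**Figure D3:**
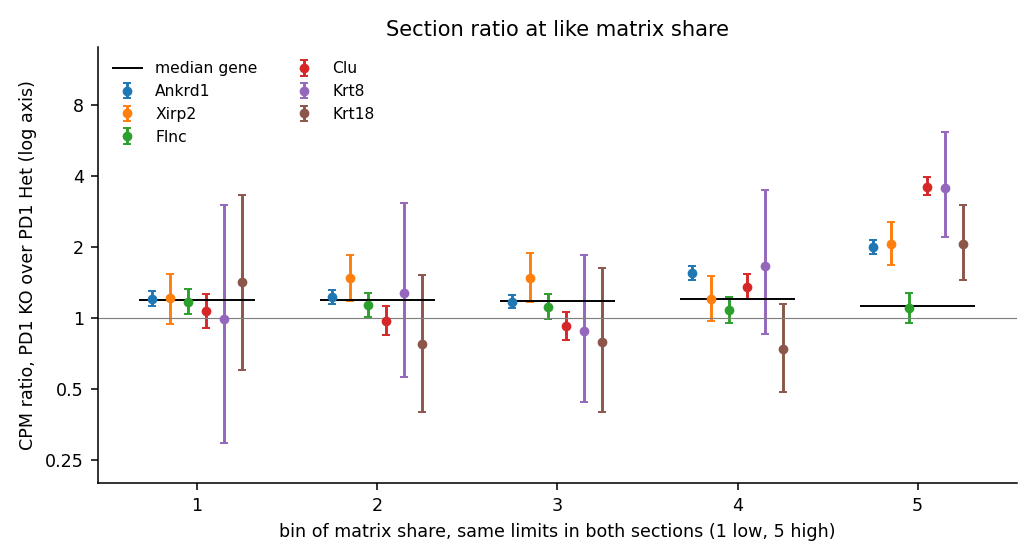
PD1 KO to PD1 Het CPM ratio on a log axis in 5 bins of spots with the same limits of matrix share in both sections, with 95% exact intervals for counting error and the median gene as a black line. Sprr1a is left out because it had 0 or 1 PD1 Het UMIs in 4 bins. Clu is near the grey line of equal CPM in bins 1 to 3 and at 3.61 in bin 5.

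Levels of the members across spots were more alike in the PD1 KO than in the PD1 Het section, by a correlation that sparse counts hold down. Across the 21 pairs, the median Pearson r of log2(UMIs per 10000 + 1) over spots was 0.085 in the PD1 Het section (range -0.026 to 0.30, n = 811 spots) and 0.396 in the PD1 KO section (range 0.048 to 0.636, n = 851 spots). After thinning to equal depth the medians were 0.102 and 0.276. Spots of a section share a library, depth and composition, so these values are descriptions. The closest PD1 KO pairs were Clu with Krt18 (r = 0.64), Clu with Krt8 (r = 0.60) and Clu with Ankrd1 (r = 0.57), while Flnc had at most 0.27 with any member. With the matrix share, Clu had r = 0.46 in PD1 Het and 0.71 in PD1 KO tissue, and Flnc had 0.00 in the PD1 KO section.

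**Figure D4:**
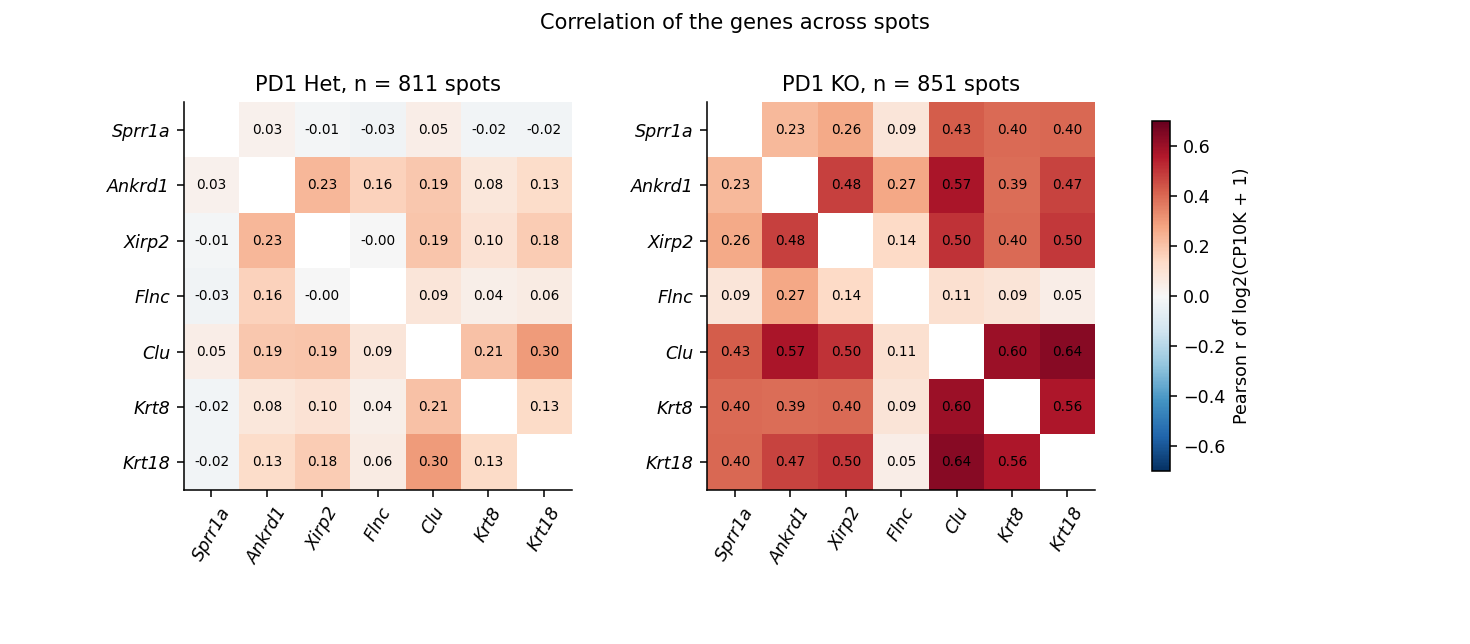
Pearson r of log2(UMIs per 10000 + 1) between the genes across spots, in the PD1 Het (n = 811 spots) and PD1 KO (n = 851 spots) sections, on 1 colour scale. All PD1 KO pairs without Flnc are at 0.23 or above, and the highest PD1 Het pair is Clu with Krt18 at 0.30.

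The rare members met in a small set of PD1 KO spots. Sprr1a had a UMI in 73 spots, of which 39 (53.4%) also held Krt8 and 46 (63.0%) Krt18. Krt8 was in 183 spots, Krt18 in 218 and both in 98. All 3 were in 31 spots, of which 26 (83.9%) lay in the most matrix-rich bin. Those 31 spots had 2.79% matrix UMIs and 6.50% cardiomyocyte marker UMIs, against 8.66% cardiomyocyte marker UMIs in all spots of the section. Of the 31, 26 lay in the bin poorest in cardiomyocyte markers. In the PD1 Het section Krt8 was in 58 spots, Krt18 in 97 and both in 16, and none of the 4 Sprr1a spots held a keratin.

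Each member was also measured in the top 10% of spots ranked by the other 6, so that it took no part in its own ranking. In the PD1 KO section Sprr1a was 17.8-fold (12.6 to 25.4) higher in those spots than in the rest, Clu 14.7-fold, Krt18 14.5-fold, Krt8 11.8-fold, Xirp2 3.82-fold and Ankrd1 3.07-fold. In the PD1 Het section Krt18 was 5.41-fold, Krt8 3.56-fold, Clu 2.66-fold, Xirp2 2.58-fold and Ankrd1 2.27-fold higher. None of the 4 Sprr1a UMIs of that section lay in its top spots, which allows a ratio of up to 15.7. Flnc was 1.29-fold higher in PD1 Het and 1.15-fold (1.03 to 1.27) in PD1 KO tissue. The share of all genes raised in these spots was not computed. Co-location with matrix and cardiomyocyte transcripts helped to choose the members, so nothing is read from these ratios.

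Genes outside the set were then read in the top 10% of spots by all 7 members, 81 PD1 Het and 85 PD1 KO spots. Of these, 44 (54.3%) and 67 (78.8%) lay in the most matrix-rich bin. Matrix genes together were 1.93-fold and 3.17-fold higher there than in other spots, with all 16 genes at least 1.5-fold higher in both sections, where 15.9% and 14.4% of all genes were. Co-location with matrix helped to choose the members, so nothing is read from these matrix values. A list of other border-zone genes was 1.70-fold and 4.86-fold higher in sum, with 6 of 13 genes past 1.5-fold in each section, 1 that much lower in PD1 KO, and a median gene at 1.30 and 1.45. The list summed to 6646 CPM in the PD1 Het and 24392 CPM in the PD1 KO top spots, and without Nppa its sum was 1.21-fold and 1.55-fold higher than in other spots. Nppa, which encodes atrial natriuretic peptide, was 2143 CPM against 186 CPM in PD1 Het and 17622 against 662 CPM in PD1 KO tissue. Myh7, the fetal myosin heavy chain of mouse ventricle, was 3.001-fold and 16.2-fold higher, and Acta1, skeletal actin, 5.30-fold and 4.89-fold. Others of the list were level or lower, among them Csrp3 (0.948 and 0.917), Cryab (1.01 and 1.04), Xirp1 (1.09 and 1.03), Tnni1 (1.03 and 0.982) and Tnnt1 (0.901 and 0.604), named after their values were seen. Genes of the Z-disc, where Flnc protein sits, were 0.976-fold and 0.878-fold of other spots, and the cardiomyocyte markers 0.951-fold and 0.784-fold. Targets of YAP and TEAD, which include Ankrd1 itself in textbooks, were 1.49-fold and 1.69-fold in sum. Of these 10 genes, 4 were past 1.5-fold in each section, with medians of 1.36 and 1.33. Among the 4 were Ccn2 at 2.91-fold and 3.31-fold and Ccn1 at 2.05-fold and 2.55-fold.

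**Figure D5:**
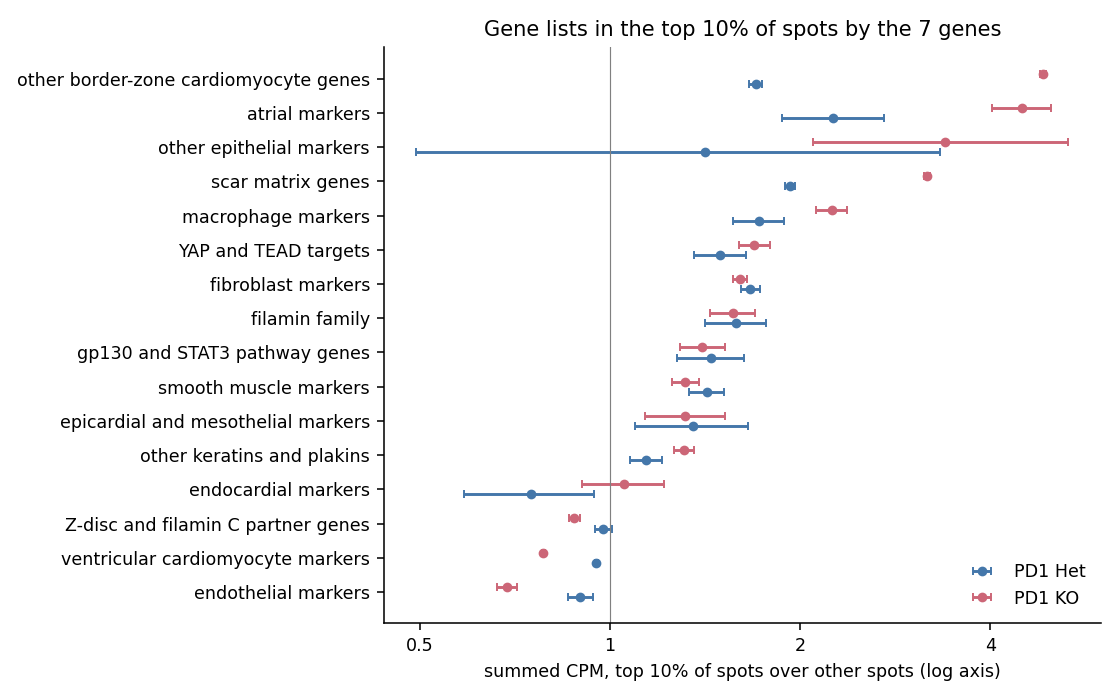
Summed CPM of each gene list in the top 10% of spots by the 7 genes over all other spots, on a log axis, for the PD1 Het and PD1 KO sections. Scar matrix (1.93 and 3.17) and other border-zone genes (1.70 and 4.86, or 1.21 and 1.55 without Nppa) lie to the right, and cardiomyocyte markers (0.951 and 0.784) to the left of 1.

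Without those top spots, the PD1 KO to PD1 Het ratio of Clu went from 2.79 to 1.52 (1.43 to 1.61) and that of Krt18 from 1.85 to 1.41, while Ankrd1 at 1.61, Xirp2 at 1.71, Flnc at 1.18 and Krt8 at 2.71 moved less. Relative to the median gene, the log2 ratio of Clu was then 0.27 and that of Krt18 0.17, so Clu was no longer past 1.5-fold and 2 members, Sprr1a and Krt8, were. Sprr1a had 0 PD1 Het and 35 PD1 KO UMIs in these remaining spots.

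The gene with the pattern most like each member was sought among 6024 genes by the mean of the 2 within-section correlations. Nppa came first for Ankrd1 (r = 0.45 in PD1 Het and 0.71 in PD1 KO tissue), Clu (0.46 and 0.81), Krt18 (0.34 and 0.61) and Krt8 (0.18 and 0.56), and also for Xirp2. Nppb and Cilp followed for Ankrd1, and Col1a2 and Bgn, which encode matrix proteins, for Clu. Sprr1a was closest to Col1a2 (0.11 and 0.41). Flnc was closest to Actc1, cardiac actin, at only 0.19 in both sections.

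Between whole sections, the lists of related genes had medians closer to the median gene than the members did. This contrast helped to choose the members, so nothing is read from that difference. Of 13 other border-zone genes with at least 10 UMIs, 3 were at least 1.5-fold above the median gene in the PD1 KO section, Nppa (relative log2 ratio 2.21), Myh7 (1.38) and Acta1 (0.998), and 0 were below, with a list median of 0.19. Beside this and the counts that follow stand the 5.5% of all tested genes that were above and the 3.3% below. None of 16 Z-disc genes passed in either direction, with a median of 0.07. Among YAP and TEAD targets, 2 of 10 were above, Ccn1 (1.22) and Ccn2 (0.85), and the median was 0.11. Of 11 genes of the gp130 and STAT3 pathway, the cytokine route that raises Sprr1a in muscle cells, Junb (1.08) and the ligand gene Ctf1 (0.67) were above, Stat3 was at 0.04, the receptor gene Il6st at -0.30, and the median was 0.04. Flna, which encodes filamin A, was at -0.27 on this scale and at 0.06 on the CPM scale, and 11 other SPRR genes had 2 UMIs together in PD1 Het and 4 in PD1 KO tissue.

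Since Krt8, Krt18 and Clu are also made outside muscle, markers of other cell types are given beside them. The 9 epicardial and mesothelial markers took 72.4 CPM in PD1 Het and 83.3 CPM in PD1 KO tissue, with 0 of 9 above and 1 below the 1.5-fold line. In the top 10% of spots by the 7 genes, 6 of 8 epicardial markers were at least 1.5-fold higher in PD1 Het and 4 of 8 in PD1 KO, with medians of 2.04 and 1.74. Along the matrix bins the epicardial list went from 58.6 to 113 CPM in PD1 Het and from 60.7 to 123 CPM in PD1 KO. Macrophage markers were 1.72-fold and 2.24-fold higher in the top spots, with 7 and 9 of 9 genes past 1.5-fold, and went from 188 to 539 CPM and from 182 to 986 CPM along the matrix bins. Fibroblast markers were 1.67-fold and 1.61-fold higher and the atrial list 2.26-fold and 4.49-fold. The part of these cell types in the values of the members was not tested. Other epithelial markers took 3.90 and 4.68 CPM, with Krt5 and Cldn18 at 0 UMIs and Epcam, Cdh1 and Sftpc at 0 or 1 UMI per section. Of the most matrix-rich PD1 KO bin, 146 spots held an epicardial marker UMI and 24 did not. Krt8 was 49.6 CPM in the former and 44.8 CPM (28.1 to 67.8) in the latter, Krt18 was 62.2 and 48.8 CPM, and Clu 1639 and 1528 CPM. At these marker levels a spot without such a UMI is not shown to lack epicardial cells. Sprr1a was 34.6 CPM (28.5 to 41.5) with and 4.07 CPM (0.493 to 14.7, 2 UMIs) without it. In the most matrix-rich PD1 Het bin, 100 spots held such a UMI and 62 did not. There Clu was 268 CPM with and 372 CPM without it, Krt18 23.7 and 28.3 CPM and Krt8 10.8 and 10.3 CPM. Sprr1a had 1 and 2 UMIs in these PD1 Het spots. When all spots with such a UMI were left out, the relative log2 ratio of Sprr1a between sections went from 4.002 to 0.69, on 3 UMIs in 326 PD1 Het spots and 4 UMIs in 129 PD1 KO spots, or 0.627 CPM (0.129 to 1.83) and 1.26 CPM (0.342 to 3.22). The part of the epicardium in the Sprr1a difference was not tested. The atrial genes Sln and Myl7 had 1 and 4 and 16 and 31 UMIs, in 13 PD1 Het and 29 PD1 KO spots, and without these spots the relative log2 ratio of Clu was 1.005 in place of 1.15.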

How the data were processed

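Visium libraries of 1 PD1 Het and 1 PD1 KO heart section were analysed. The authors deposited unnormalized UMI counts for every gene in every spot, from Space Ranger 1.1.0 per the file headers. Builds mm10 and GRCm38 are named in the submitters' processing notes. How reads were aligned, which annotation was used and whether counting used strand is not given in the sources used here. Gene positions were taken from GENCODE vM21 and promoter windows from RefSeq GRCm38.p6, which matched 6 of the 7 genes by symbol.

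Only spots of at least 500 UMIs were kept. Sums over spots were expressed as CPM of the UMIs of all genes. Ratios set the PD1 KO over the PD1 Het section, relative to the median gene over genes with at least 100 UMIs where so called. Intervals at 95% are exact Poisson for sums, Clopper-Pearson for shares above 0 and exact conditional for ratios, and a count of 0 allows up to 3 counts. No test or p-value was computed, since each group has 1 section and spots are not replicates. Calculations used Python 3.11.15, numpy 2.4.6, scipy 1.17.1 and pandas 2.3.3 and were tested on simulated data. Alternatives included size factors by median of ratios or by TMM in edgeR 4.0.16, other totals, spot filters, thinning depths and bin rules.

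The members, the 17 other gene lists and the rules were chosen with earlier results of these data known. Of each other list the 2 most abundant genes and the 2 whose log2 ratio was farthest from 0, among those with at least 30 UMIs, could be named, and for likeness the 3 genes with the highest mean correlation among those with at least 200 UMIs in each section. Other genes were named after their values were seen.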

Additional observations from a re-analysis of the deposited data

How the results depend on the processing

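The median relative log2 ratio of the 7 genes was 0.55 and became 0.88 on the CPM scale without the median gene subtracted, an alternative chosen after seeing the data, and 0.87 when scaled to the ventricular cardiomyocyte markers. The 3 members past 1.5-fold became 6, 5 and 6 on the CPM scale, with a total without mitochondrial genes and with the cardiomyocyte scaling. The 1 member lower in the most cardiomyocyte-rich PD1 Het bin became 4 with 10 bins, 3 with a total without mitochondrial genes and 0 with spots of at least 5000 UMIs. The 1 member highest in PD1 KO spots above both medians became 0 when the matrix list lost Postn, Fn1 and Timp1. Of the values for whole comparisons, 52 alternatives stayed within the limits of a like value and 9 moved, and of those for single genes 63 stayed and 21 moved. No alternative reversed the sign of the median ratio, of the median correlations or of a member past 1.5-fold. Counts could not reverse under the rule used. Flnc, which was not past 1.5-fold, changed sign on the CPM scale, without mitochondrial genes in the total and with the cardiomyocyte scaling. Leaving out spots with epicardial or atrial marker UMIs, or the top 10% of spots by the 7 genes, was also chosen after seeing the data, as were lists without their weightiest gene. Without the top 10% of spots, 2 members were past 1.5-fold. No paired analysis was possible because each group has 1 section, and for the same reason no section could be left out. Depth limits Sprr1a and the keratins in the PD1 Het section, where 4, 62 and 116 UMIs carry every value.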

Other observations

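Several genes outside the set were read in the top 10% of spots by the 7 genes and are given as values. Cnn1, a calponin of smooth muscle, was 11.5 CPM in these spots and 2.40 CPM in the others of the PD1 Het section, and 105 and 5.85 CPM in the PD1 KO section. Its relative log2 ratio between whole sections was 1.81, while the 6 smooth muscle markers had a median of -0.13, with 1 gene above the 1.5-fold line. In the top spots 4 of these 6 were at least 1.5-fold higher in PD1 Het and 2 in PD1 KO, with medians of 2.85 and 1.19. Dkk3, a gene of the atrial list, was 74.6 and 23.5 CPM in the PD1 Het and 136 and 27.8 CPM in the PD1 KO section. Myl4, the atrial and fetal myosin light chain, was 32.9 and 14.5 CPM in the PD1 Het and 91.0 and 16.9 CPM in the PD1 KO section. The keratin gene Krt7 had 19 of its 39 PD1 KO UMIs in these spots, a ratio of 10.4 (5.26 to 20.6). Dsp, which encodes the desmosome protein that anchors filaments, had ratios of 0.854 (0.758 to 0.959) and 1.07 (0.997 to 1.15). Msln, a mesothelial marker, had ratios of 2.19 (1.33 to 3.46) and 3.49 (2.69 to 4.48). The epicardial list in sum had 1.35 and 1.32, and 2.15 and 2.14 without Aldh1a2, its most abundant gene, which was at 0.610 and 0.419. Upk1b, another mesothelial marker, had ratios of 6.34 (2.71 to 14.2) and 5.48 (2.67 to 10.8).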
